A study of Mus musculus with 12 samples.

Results

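The neural crest transcription factors Sox2, Pax3, Foxd3, Tfap2a, Tfap2b and Snai2 and the Id repressors Id1, Id2, Id3 and Id4 were followed across sorted mouse Schwann cells. These 10 of the 25700 genes in the count table were chosen by name, as the rows whose Ensembl mouse identifier carries one of these symbols, and each symbol matched 1 row. RNA was prepared with a Smart-Seq2 type protocol from cells sorted out of sciatic nerves at postnatal day 5 (P5) and sequenced in bulk, in 12 libraries from 4 mice. The mice (C57bl/6J) carried P0Cre, ReYFP and βAct-DsRed, so that every gate shared all 3 alleles and the cells sorted were eYFP-positive. This Cre is driven by a promoter active in the Schwann cell lineage, so the reporter marks cells with a history of Cre activity, whatever they expressed at sorting. The gates differed in side scatter, the light that granular or membrane-rich cells scatter sideways. High side scatter defined mSC (enriched for myelinating Schwann cells), low side scatter defined nmSC (not myelinating), and allSC took in both. Each gate holds 1 library from each of mice 1 to 4, which is its subject number in the labels. Per the study's methods 2 of the 4 samples of a gate came from females, but the labels do not say which.

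Neural crest cells are migratory embryonic progenitors that give rise to Schwann cells, melanocytes and other lineages. Foxd3, Tfap2a, Tfap2b, Pax3 and Snai2 are among the factors that specify the crest or its migration, and Sox2 and Pax3 are known from immature and repair Schwann cells, where Sox2 holds back myelination. Id proteins lack the basic region that binds DNA. They pair with E proteins (Tcf3, Tcf4, Tcf12) and keep them from forming active dimers with other basic helix-loop-helix factors, and bone morphogenetic protein (BMP) signalling through Smads is a well-known inducer of Id genes.

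By adjusted p in edgeR's test of mSC against nmSC, Id2 carried the clearest difference and Sox2 the next, whereas Id4 did not pass. Bases from the 250-base windows before the RefSeq starts of these genes are shown (build GRCm38.p6, 5′ to 3′ on the strand of the gene). Capitals mark the letters CANNTG (the E-box that basic helix-loop-helix factors bind), GGCGCC and CCAAT, each searched on both strands. CACGTG, which is also a CANNTG, was searched as well.
Id2, chr12:25096254-25096342, minus strand: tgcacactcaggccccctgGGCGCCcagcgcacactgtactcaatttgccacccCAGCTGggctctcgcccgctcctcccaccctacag
Sox2, chr3:34649745-34649994, plus strand: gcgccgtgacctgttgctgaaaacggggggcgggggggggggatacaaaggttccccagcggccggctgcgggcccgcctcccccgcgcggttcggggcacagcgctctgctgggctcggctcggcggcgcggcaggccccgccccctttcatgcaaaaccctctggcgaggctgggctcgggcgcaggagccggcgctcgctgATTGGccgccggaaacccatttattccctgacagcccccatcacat
Id4, chr13:48260866-48261115, plus strand: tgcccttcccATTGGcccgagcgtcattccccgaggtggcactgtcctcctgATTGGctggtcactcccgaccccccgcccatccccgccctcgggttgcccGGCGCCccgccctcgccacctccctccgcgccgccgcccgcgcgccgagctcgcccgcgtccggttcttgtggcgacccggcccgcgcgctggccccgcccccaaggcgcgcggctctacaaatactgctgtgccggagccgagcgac
The Id2 stretch is the outer 89 bases of the 250-base window before its RefSeq start, up to the first annotated exon, and it holds 1 CANNTG and 1 GGCGCC. It lies inside the GENCODE span of Id2 (25093799 to 25097140, minus strand), which begins farther upstream. The stretch is therefore not the sequence before the GENCODE start. The whole 250-base window of Id2 also holds 3 CCAAT, none within the printed stretch. The Sox2 window holds 1 CCAAT and no CANNTG. The Id4 window holds 1 GGCGCC and 2 CCAAT. Of 32851 windows of 250 bases in the RefSeq promoter table, 66.2% hold CANNTG, 6.02% CACGTG, 9.59% GGCGCC and 33.8% CCAAT, so the E-box is the commonest of the 4 motifs at large. Promoters of 7 of the 10 genes were in the table; Id1, Pax3 and Snai2 were not.

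The libraries held between 8180927 and 16918122 counts. Levels in CPM, a library's counts scaled to a common total, are given below and use TMM scaling, which sets libraries level on the bulk of genes: its factors were 0.744 to 0.871 in mSC, where the 50 most counted genes took 26.9% to 31.6% of counts, and 1.16 to 1.28 in nmSC, where they took 17.9% to 18.9%. A count of 3 amounted to 0.198 to 0.375 CPM, and levels near it are imprecise. The myelin gene Mbp, 1 of 8 Schwann cell markers, was at 49231 to 56832 CPM in mSC, 25212 to 29510 CPM in allSC and 5184 to 6377 CPM in nmSC. Of the 8 markers, 4 were called higher and 3 lower in mSC than in nmSC. The lower ones were Ngfr, Ncam1 and L1cam, at means of 41.7, 48.9 and 8.71 CPM in mSC and 256, 553 and 163 CPM in nmSC. Between mSC and nmSC, edgeR's quasi-likelihood test called 3792 genes higher and 3748 lower in mSC at an adjusted p under 0.05, and over all tested genes the log2 fold changes had a median of -0.16.

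**Figure D1:**
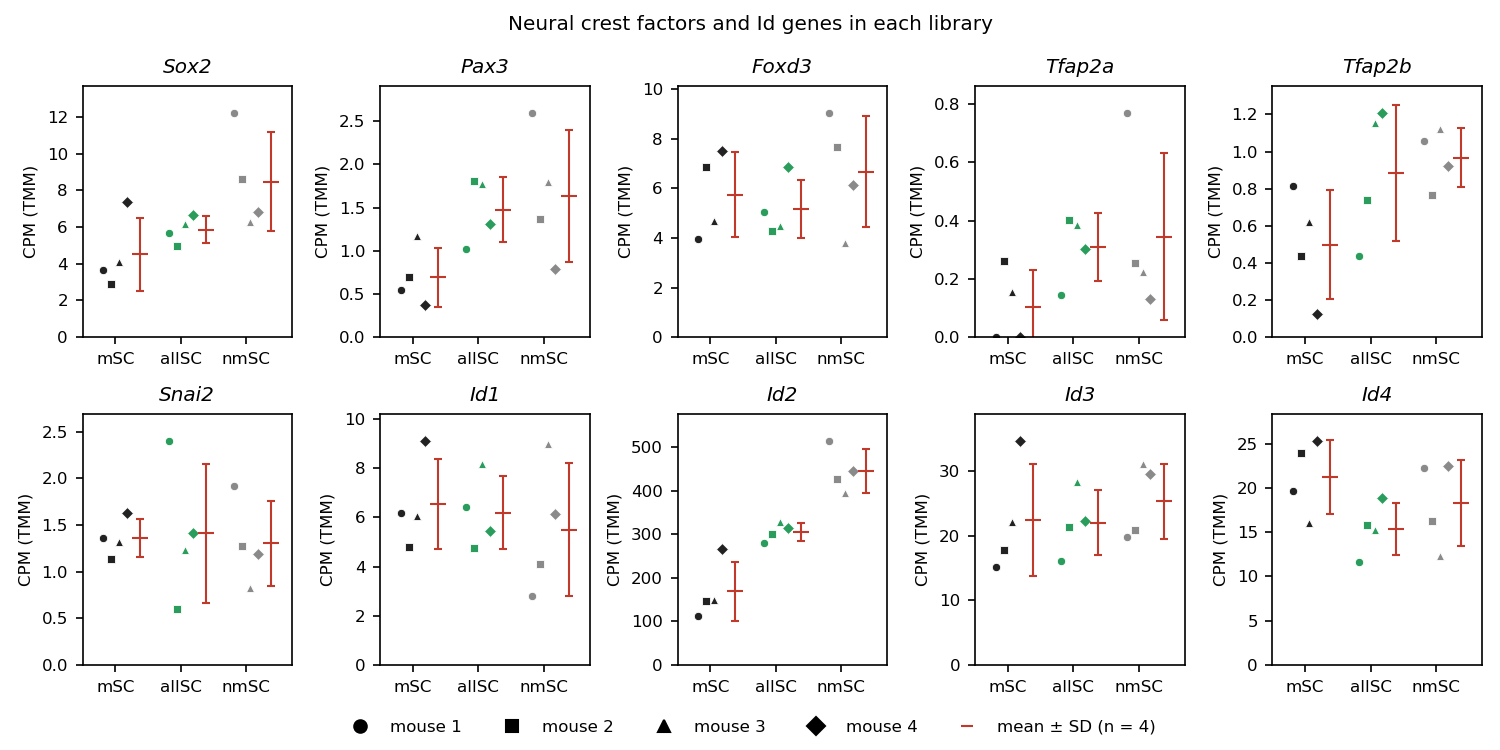
Level of each member gene in CPM (vertical axis, from 0) by sorting gate (horizontal axis); each point is 1 library, its shape gives the mouse, and red bars are mean ± SD of 4 libraries, cut at 0 for Tfap2a. Id2 lies lowest in mSC and highest in nmSC, with no mSC library reaching an nmSC library, and the mSC library of mouse 4 is the highest of its gate for Sox2, Foxd3, Snai2, Id1, Id2, Id3 and Id4.

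Per length, Id2 was the most abundant member in every gate. In RPKM, which is CPM divided by exon length in kilobases, its level was 69.2 ± 27.6 in mSC, 126 ± 8.35 in allSC and 183 ± 20.7 in nmSC (SD, n = 4). Id3 came next, at 12.5, 12.3 and 14.1 RPKM, and in no gate did its libraries overlap those of Id2 above or of the next gene below. Id1 and Id4, at 4.00 to 5.63 RPKM, overlapped each other in every gate, as did Sox2 and Foxd3 below them, at 2.19 to 4.12 RPKM. Id1, Id4 and Sox2 also overlapped as neighbours in nmSC, and Id4 and Sox2 in allSC. Snai2 lay at 0.645 to 0.699 RPKM. Pax3, Tfap2b and Tfap2a followed in this order in each gate, with overlapping libraries and means at or under 0.264 RPKM. For scale, 1511 olfactory and vomeronasal receptor genes, which Schwann cells are not known to use, had a 95th percentile of 0.513 RPKM in mSC, 0.668 in allSC and 0.758 in nmSC. Pax3, Tfap2a and Tfap2b were below that level in all 3 gates and Snai2 in nmSC.

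Sox2, the factor of immature Schwann cells, is a gene of a single exon on chromosome 3 (34650405 to 34652461, plus strand, GRCm38). It lies within an intron of Sox2ot, a non-coding gene of the same strand with which it shares 0 exon bases. Its level was 3.67, 2.87, 4.12 and 7.37 CPM in the mSC libraries of mice 1 to 4. In nmSC it was 12.2, 8.60, 6.28 and 6.79 CPM. The mSC library of mouse 4 lay above 2 of the nmSC libraries, so the gates overlapped, and mSC was below nmSC in 3 of 4 mice. The log2 fold change of mSC against nmSC was -0.93 ± 0.27 (SE), or 1.91-fold higher in nmSC (95% interval 1.29 to 2.83), with an adjusted p of 0.0104 by edgeR's quasi-likelihood test. The two-sided exact permutation test of this gene did not pass (p = 0.0857). The edgeR call was lost without the nmSC library of mouse 1 (log2 -0.70, adjusted p = 0.0520, edgeR). In allSC, Sox2 was between 4.96 and 6.65 CPM and differed from neither gate by the test.

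Pax3, a paired-box factor of the crest and of early Schwann cell precursors, spans chromosome 1 from 78101267 to 78197134 on the minus strand. It had 3 to 15 counts per mSC library and 12 to 27 per nmSC library. That came to 0.544, 0.696, 1.17 and 0.375 CPM in mSC and 2.6, 1.36, 1.79 and 0.792 CPM in nmSC for mice 1 to 4. The gates overlapped, although mSC was below nmSC in each of the 4 mice. The log2 fold change was -1.17 ± 0.45 (SE; adjusted p = 0.0429, edgeR), or 2.25-fold higher in nmSC (95% interval 1.18 to 4.31). Its two-sided exact permutation p was 0.0571. The edgeR call was lost in 6 of the 8 fits that left out 1 library, each of mSC 1, mSC 2, mSC 4, nmSC 1, nmSC 2 and nmSC 3, where the adjusted p reached 0.158 (edgeR). Pax3 was at 1.02 to 1.81 CPM in allSC, and both comparisons with allSC missed the threshold.

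Foxd3, a forkhead factor that specifies the crest and restrains melanocyte fate, is a gene of 1 exon on chromosome 4 (99656299 to 99658622, plus strand) and shares 89 bases with an annotated microRNA, Gm23366. Its level was 3.94 to 7.49 CPM in mSC and 3.81 to 9.04 CPM in nmSC, and the gates overlapped. The log2 fold change was -0.22 (95% interval -0.79 to 0.34; adjusted p = 0.519, edgeR).
Tfap2b, an AP-2 factor of the crest (chromosome 1, 19208914 to 19238576, plus strand), had 1 to 15 counts per library and was lower in mSC than in nmSC in each of the 4 mice, at a mean of 0.499 ± 0.294 against 0.967 ± 0.157 CPM (SD, n = 4). Its difference of -0.86 on the log2 scale did not pass the test (adjusted p = 0.167, edgeR). Snai2, a zinc-finger repressor of epithelial genes (chromosome 16, 14705852 to 14709385, plus strand), was at 1.13 to 1.62 CPM in mSC and 0.823 to 1.92 CPM in nmSC. Its log2 fold change of 0.07 (95% interval -0.81 to 0.94) had no stable sign, since it was -0.51 with libraries scaled to total counts alone.

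Tfap2a, the AP-2 factor that acts with Tfap2b in the crest (chromosome 13, 40715302 to 40738376, minus strand), had 0 to 8 counts per library and was the 1 member removed by the filter on low counts. It had 0, 3, 2 and 0 counts in mSC, 2, 6, 5 and 3 in allSC, and 8, 3, 3 and 2 in nmSC for mice 1 to 4. A difference between the gates was not detectable at this depth. Its exons also share bases with 3 annotated genes of the opposite strand, and the protocol does not mark strand.

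Id2 lies on chromosome 12 (25093799 to 25097140, minus strand). It had 113, 146, 150 and 267 CPM in mSC for mice 1 to 4. In allSC it had 281, 302, 329 and 314 CPM. In nmSC it had 516, 428, 396 and 447 CPM. No library of a gate overlapped one of another gate, and the mSC library of mouse 4 stood well above the other mSC libraries. The log2 fold change of mSC against nmSC was -1.41 ± 0.19 (SE; adjusted p = 8.34e-06, edgeR), or 2.65-fold higher in nmSC (95% interval 2.00 to 3.51). A two-sided exact permutation test of this gene gave p = 0.0286, the smallest that 4 against 4 libraries allow, and 0.190 after Benjamini-Hochberg adjustment for the 10 exact tests, 1 for each gene. Id2 was called in all 8 fits without 1 library, at log2 -1.71 to -1.24. Against allSC, mSC was lower by log2 -0.86 (adjusted p = 0.00362, edgeR), while nmSC stood log2 0.54 above allSC with an adjusted p of 0.0798 (edgeR). The mean of allSC for Id2 lay at 49.5% of the way from mSC to nmSC. For all 3978 genes called with a change of at least 2-fold the median was 56.1%, with quartiles of 47.3% and 65.2%. Pax3, the other member called with such a change, lay at 83.1%, on low counts.

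The 3 other Id genes did not pass the test between mSC and nmSC. Id3 (chromosome 4, 136143497 to 136145755, plus strand) was at 15.1, 17.8, 22.1 and 34.7 CPM in mSC and at 19.8, 20.9, 31.0 and 29.5 CPM in nmSC. Its log2 fold change was -0.19 (95% interval -0.68 to 0.30; adjusted p = 0.526, edgeR). A fit without both mSC 4 and nmSC 1 called Id3 lower in mSC (log2 -0.55, adjusted p = 0.0315, edgeR). This pair of libraries was picked once the values were known. It holds the highest Id3 level of mSC and the lowest of nmSC, so leaving both out favours such a call. That fit therefore decides nothing for Id3, which was called in 0 of the 8 fits without 1 library. Id4 (chromosome 13, 48261228 to 48266026, plus strand) was at 19.6, 23.9, 16.1 and 25.3 CPM in mSC and at 22.2, 16.3, 12.3 and 22.4 CPM in nmSC. It shares 82 exon bases with A330033J07Rik and 171 with Gm49291, both on the opposite strand, and their reads cannot be told apart here. Its log2 fold change was 0.21 (95% interval -0.22 to 0.64; adjusted p = 0.414, edgeR). Id1 (chromosome 2, 152736251 to 152737410, plus strand) was at 4.78 to 9.12 CPM in mSC and 2.79 to 8.97 CPM in nmSC, and its log2 difference was 0.22 (95% interval -0.40 to 0.85; adjusted p = 0.565, edgeR). With libraries scaled to total counts alone, Id1 and Id4 turned to -0.33 and -0.37, where the median of all genes was -0.73.

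**Figure D2:**
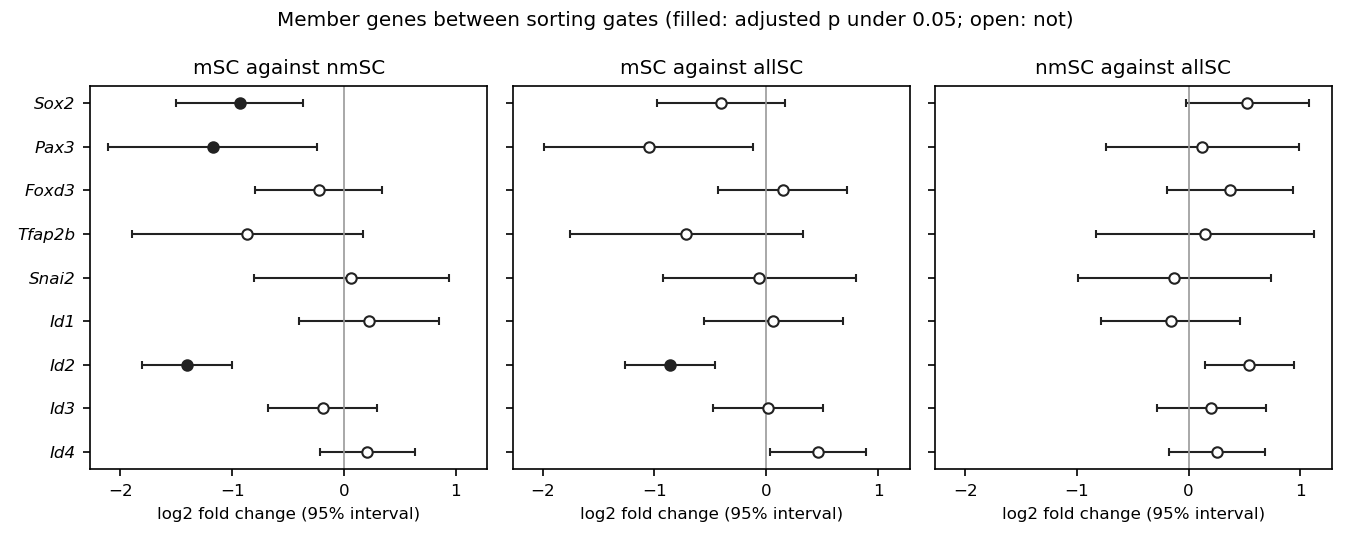
Log2 fold change (horizontal axis) of the 9 tested members in each pair of gates, with 95% intervals from the edgeR fit; filled points have an adjusted p under 0.05. Id2, Sox2 and Pax3 are filled and left of 0 in mSC against nmSC, Id2 alone in mSC against allSC, and no member in nmSC against allSC.

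Of the 10 members, 9 passed the filter on low counts and 3 were called between mSC and nmSC, beside 40.5% of all tested genes. All 3 were lower in mSC, a direction in which 20.2% of the tested genes were called. Every mSC library lay below every nmSC library for 1 member, Id2, and for 17.4% of the tested genes. Between mSC and allSC 1 member was called, Id2, beside 17.6% of genes in either direction and 8.8% lower in mSC. Between nmSC and allSC edgeR called 0 members, beside 10.4% of genes; Id2 alone had an unadjusted p under 0.05 there, and DESeq2 also called 0. These comparisons share libraries and allSC contains the cells of both other gates, so they are not independent. In sorted bulk samples, fewer cells with a transcript and less of it per cell cannot be told apart.

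Members also moved beside other features of the gates. The summed level of 8 cycling-cell markers was 81.8 to 160 CPM in mSC, 676 to 819 CPM in allSC and 1129 to 1440 CPM in nmSC, and 8 of 8 were called lower in mSC than in nmSC. The sum for 7 fibroblast-like markers was 1647 to 3089 CPM in mSC, 4817 to 5482 CPM in allSC and 6687 to 8722 CPM in nmSC, with 2 of 6 tested markers, Col1a1 and Col1a2, called lower in mSC. These collagen genes made up nearly all of that sum. Of the other tested markers, Pdgfra, Dcn, Lum and Cd34 were at 2.34, 12.8, 5.01 and 1.45 CPM in mSC and at 2.35, 8.49, 2.18 and 2.75 CPM in nmSC, and none passed the test. The part of the cycling markers or the collagen genes in the levels of Id2, Sox2 and Pax3 was not tested. The sum for 7 immune markers was 17.1 to 26.3 CPM in mSC, 22.7 to 31.8 CPM in allSC and 23.4 to 32.0 CPM in nmSC. Endothelial sums were 52.5 to 73.2, 35.8 to 38.9 and 17.5 to 29.1 CPM in the same order. Of the tested markers 2 were called higher and 2 lower in mSC than in nmSC. The higher, Egfl7 (35.6 CPM in mSC, 9.27 in nmSC) and Kdr (20.3 and 5.90 CPM), were the largest parts of the endothelial sums. The lower were Pecam1 (1.25 and 2.45 CPM) and Tek (0.920 and 1.98 CPM). Mural sums were 104 to 217, 124 to 144 and 76.9 to 119 CPM, with 2 of 6 tested markers called higher and 1 lower in mSC than in nmSC. Perineurial sums were 137 to 217, 231 to 252 and 204 to 339 CPM, with 1 of 4 tested markers called higher and 2 lower. Pdgfrb (129 CPM in mSC, 60.8 in nmSC) and Itgb4 (127 and 206 CPM) were the largest parts of the mural and perineurial sums. Melanocyte sums were 111 to 125, 58.7 to 76.7 and 32.6 to 46.8 CPM, with 1 of 5 tested markers called higher and 2 lower in mSC. The higher, Pmel (107 CPM in mSC, 18.6 in nmSC), was the largest part of the melanocyte sums. The lower were Tyrp1 (2.15 and 10.7 CPM) and Tyr (0.952 and 2.15 CPM). Of 14 genes of the response to dissociation, 1 was called higher and 5 lower in mSC than in nmSC, and their sums overlapped, at 2847 to 5224, 3580 to 5112 and 4023 to 4898 CPM.
The mSC library of mouse 4, the highest of its gate for 7 members, had the lowest TMM factor (0.744) and the lowest fibroblast-like sum (1647 CPM) of the 12 libraries. Without it Id2 was at log2 -1.71 and Sox2 at log2 -1.23 between mSC and nmSC, and both calls stood.

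Ratios within a library do not depend on the scaling between libraries. Sox10, the crest factor that Schwann cells keep, was at 267 ± 97.6 CPM in mSC and 266 ± 49.8 CPM in nmSC (SD, n = 4), and its log2 difference was 0.0034 (adjusted p = 0.993, edgeR). The log2 ratio of Id2 to Sox10, added after the member values were seen, was -0.14, -0.97, -1.17 and -0.27 in mSC and 0.89, 0.39, 0.94 and 0.82 in nmSC for mice 1 to 4. mSC and nmSC did not overlap in this ratio, which was 2.63-fold higher in nmSC (two-sided exact permutation p = 0.0286). In allSC it was 0.88, 0.50, -0.0064 and -0.25, which overlapped both other gates. The log2 ratio of Sox2 to Sox10 was -5.88 ± 0.73 in mSC and -5.01 ± 0.34 in nmSC (SD, n = 4). The gates overlapped and the ratio did not pass (exact permutation p = 0.0857). Without the mSC library of mouse 1 the exact permutation p was 0.0286. That library, at -5.08, overlapped nmSC and the rest of mSC did not. Leaving it out therefore fixed the p at the smallest that 3 against 4 libraries allow.

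The summed counts of the 4 Id genes were set against those of the 3 E proteins they bind. The log2 ratio was 0.50, 0.52, 0.34 and 1.39 in mSC, 1.30, 1.16, 1.19 and 1.02 in allSC, and 1.64, 1.43, 1.30 and 1.55 in nmSC for mice 1 to 4. The mSC library of mouse 4 lay among the nmSC libraries and the other 3 mSC libraries below every nmSC library. The difference of -0.79 between the means of mSC and nmSC had an exact permutation p of 0.0571. Without that library the difference was -1.03 and the exact permutation p 0.0286. With the overlapping library left out, this p could only be the smallest that 3 against 4 libraries allow, so it decides nothing. Divided by exon length, with all libraries, the mean log2 ratio was 2.17 in mSC, 2.61 in allSC and 2.91 in nmSC. Its difference of -0.74 between mSC and nmSC had an exact permutation p of 0.0857. The E proteins themselves differed between mSC and nmSC by log2 -0.47 for Tcf3 (adjusted p = 0.0506, edgeR), -0.52 for Tcf4 (0.0381) and -0.38 for Tcf12 (0.0189). Of these, edgeR called Tcf4 and Tcf12.

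**Figure D3:**
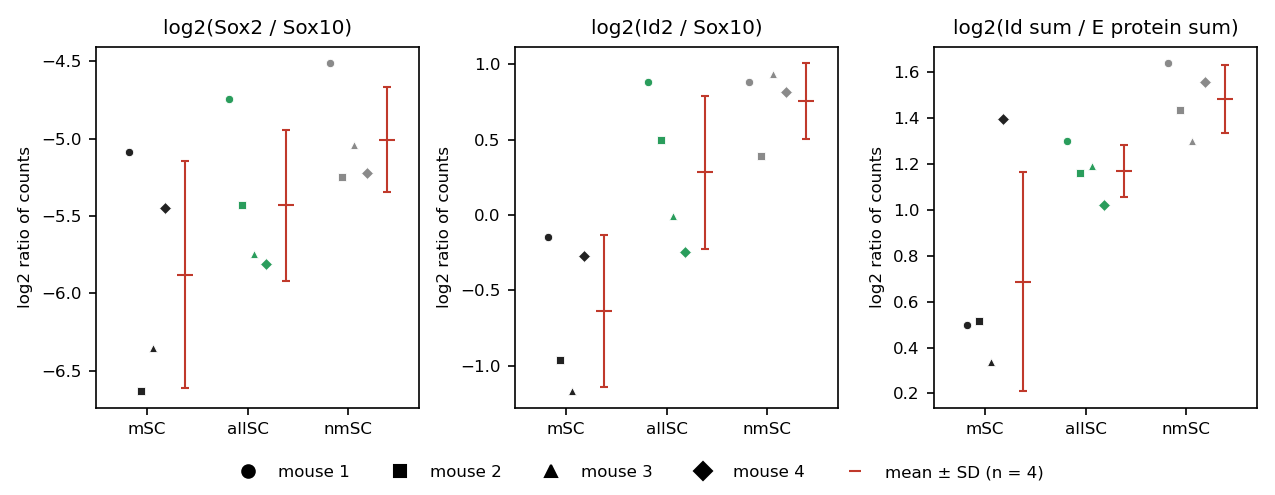
Log2 ratios of counts within each library (vertical axes) by gate (horizontal axis), for Sox2 to Sox10, Id2 to Sox10 and the summed Id genes to the summed E proteins; points are libraries, shapes mice, and red bars mean ± SD of 4. Only Id2 to Sox10 separates mSC from nmSC in every library, and in the third panel mSC of mouse 4, at 1.39, lies among the nmSC libraries.

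The make-up of the Id counts set every mSC library apart from every library of the other gates in the share of Id2. Id2 made up 73.4, 75.8, 77.2 and 79.4% of the summed Id counts in mSC, 89.1, 87.8, 86.4 and 87.1% in allSC, and 92.0, 91.2, 88.3 and 88.5% in nmSC for mice 1 to 4. No mSC library overlapped an nmSC or allSC library, whereas allSC and nmSC overlapped each other, and the mSC library of mouse 4, high in Id2 itself, kept its place with the others. The share of Id4 was 10.3 ± 2.73% in mSC against 3.66 ± 0.72% in nmSC, that of Id3 was 10.2 ± 0.90% against 5.19 ± 1.5%, and that of Id1 was 3.09 ± 0.68% against 1.15 ± 0.64% (SD, n = 4). For each of the 4 shares mSC and nmSC did not overlap and the two-sided exact permutation p was 0.0286, as was the value adjusted for the 4 tests. These shares sum to the whole, so that a lower Id2 share is also a higher share of the others. Divided by exon length, the Id2 share was 74.0% in mSC, 85.4% in allSC and 88.4% in nmSC.

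**Figure D4:**
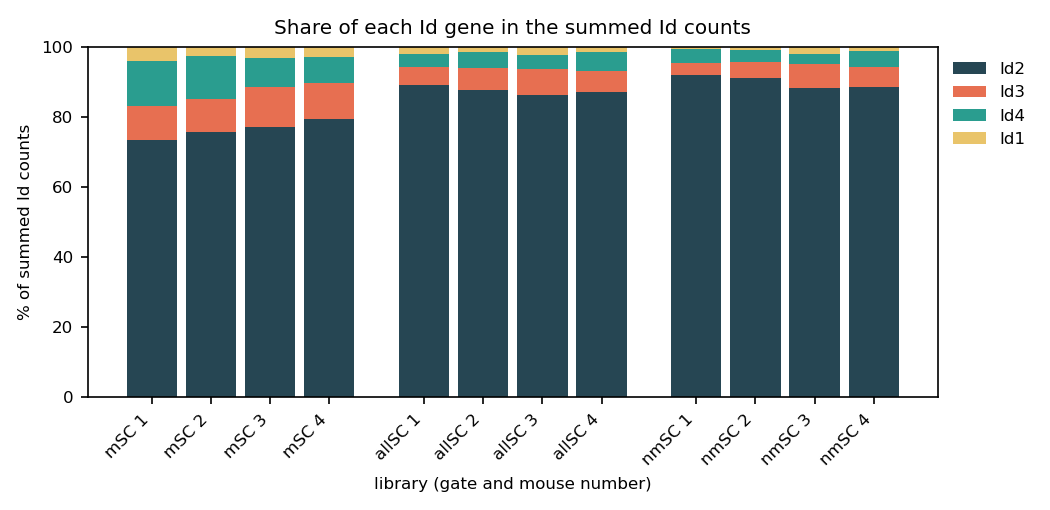
Share of each Id gene in the summed Id counts (vertical axis, percent, from 0) in each library (horizontal axis, gate and mouse number). Id2 takes 73.4 to 79.4% in the mSC libraries and 88.3 to 92.0% in the nmSC libraries, and each of the other 3 Id genes takes a larger share in mSC.

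The members were also compared between the mice that gave the libraries. Tested across the 4 mice with the gate in the model, 0 members were called by edgeR, beside 0.0538% of genes (10 of 18597, with 661 at an unadjusted p under 0.05). Id3 had the lowest adjusted p of the members, 0.812 (edgeR), with an unadjusted p of 0.00389.

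Beside the members stood other factors of the neural crest and of epithelial-mesenchymal transition. Of 27 such genes, 15 were tested and 10 called between mSC and nmSC, 2 higher and 8 lower in mSC, with a median log2 fold change of -0.79. Over all tested genes 40.5% were called, 20.2% were called lower in mSC, and the median was -0.16. Sox6, a SoxD factor, was at 2.87 ± 1.19 CPM in mSC and 28.2 ± 2.72 CPM in nmSC (SD, n = 4), a log2 difference of -3.27. Myc, a driver of growth and division, differed by -2.53, Ets1, a crest factor of the ETS family, by -1.54, and Sox5, also a SoxD factor, by -1.53.
Of 18 basic helix-loop-helix genes, among them the 3 E proteins but not all of them partners or targets of Id proteins, 12 were tested. Between mSC and nmSC 8 were called, 3 higher and 5 lower in mSC, with a median of -0.48, beside 40.5% called of all tested genes. The count was 5 with DESeq2 size factors, with no filter on low counts and with the 2 gates fitted alone. Hes1, a Notch target that represses differentiation genes, differed by log2 -2.27, at 3.72 ± 1.06 CPM in mSC and 17.7 ± 5.33 CPM in nmSC (SD, n = 4). Mxi1, which opposes Myc, was higher in mSC by log2 0.86, and Hes6 and Bhlhe41 were higher by 0.82 each.

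Of 21 genes of the BMP pathway, 17 were tested and 9 called between mSC and nmSC, 3 higher and 6 lower in mSC, with a median of -0.30. These stand beside 40.5% of all tested genes called, and 20.2% called lower in mSC. Bmp7, a ligand, was at 37.8 ± 10.4 CPM in mSC and 4.14 ± 0.91 CPM in nmSC (SD, n = 4), a log2 difference of 3.20. The ubiquitin ligase Smurf1, which marks BMP Smads for breakdown, was higher in mSC by 0.92 and the type 2 receptor Bmpr2 by 0.47, while Smad5, which carries the BMP signal to the nucleus, was lower by -0.58 on the log2 scale. Against allSC, mSC had 8 of 15 crest factors, 3 of 12 basic helix-loop-helix genes and 6 of 17 BMP genes called, beside 17.6% of all tested genes. For nmSC against allSC the counts were 3, 1 and 1, beside 10.4%.

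**Figure D5:**
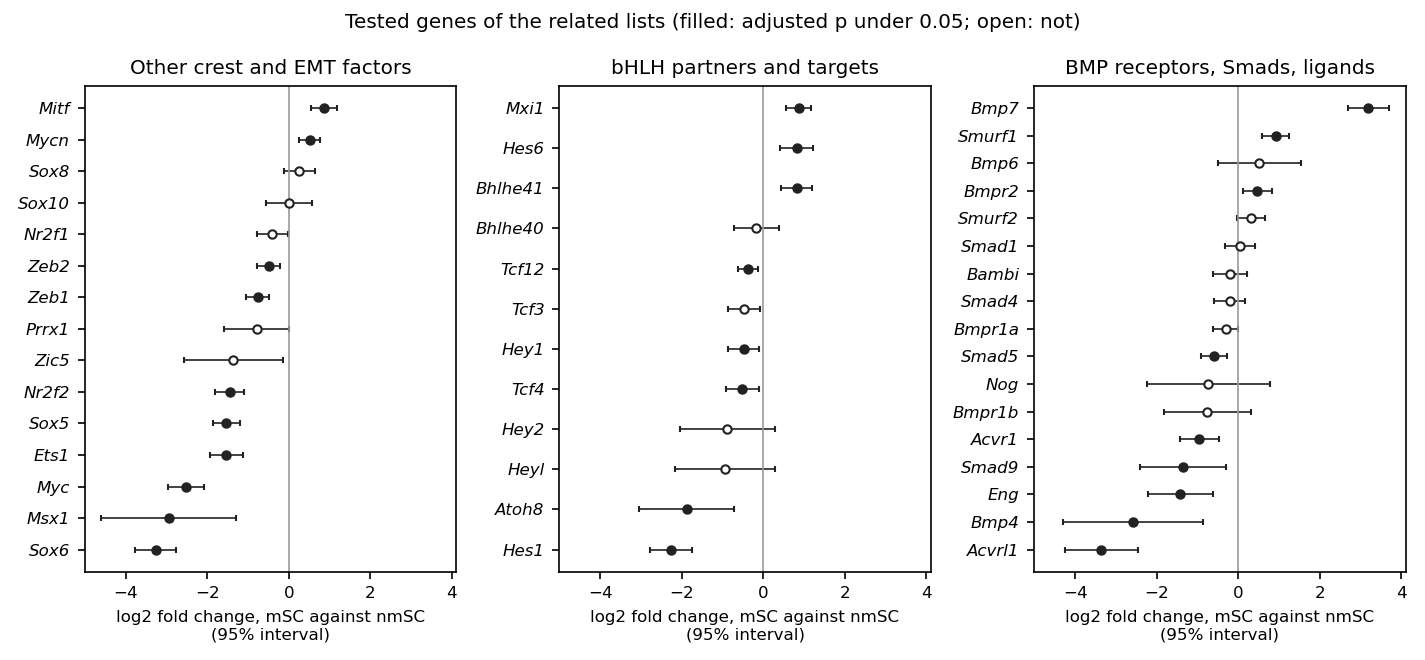
Log2 fold change of mSC against nmSC (horizontal axes, 95% intervals from the edgeR fit) for the tested genes of 3 related lists; filled points have an adjusted p under 0.05. Sox6 and Myc lie at -3.27 and -2.53, Hes1 at -2.27 and Bmp7 at 3.20.

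The genes whose profile over the 12 libraries was nearest to that of a member were sought among 9405 genes with a mean of at least 10 CPM, by the root mean square (RMS) difference of centred log2(CPM + 1) values. For Id2 they were Nr2f2 (0.111) and Prdx4 (0.119), where the spread of Id2 itself was 0.666. Nr2f2, an orphan nuclear receptor, was at 44.7 CPM in mSC, 79.2 in allSC and 122 in nmSC, and Prdx4, a peroxiredoxin, at 53.1, 89.4 and 132 CPM. For Sox2 they were Dek (0.185) and Top1 (0.193), against a spread of 0.456, and for Id4 they were Fam8a1 (0.115) and Wapl (0.165), against 0.328. For the other members the nearest gene lay at 0.125 (Golim4, for Tfap2b) to 0.221 (Urod, for Id1). Their own spreads were 0.271 to 0.393, so that these likenesses are looser than that of Id2. The added 1 CPM flattens members near or under 1 CPM. For Tfap2b the mean log2 difference of mSC against nmSC was -0.41 with 1 CPM added and -0.995 with 0.1 CPM.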

How the data were processed

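RNA of eYFP-positive cells from P5 sciatic nerves was sequenced as 12 libraries, with 4 in every gate. The authors aligned reads with STAR and counted them per gene with featureCounts, and the deposited counts are whole numbers without normalization. The submitters' processing notes name STAR 2.6.1c and mouse build GRCm38.p5, whereas the methods of the study name a human build; the identifiers are those of mouse. How strand, multiply aligned reads and overlapping genes were handled, and the rule for the listed genes, are not given in the sources used here. Smart-Seq2 does not mark strand and carries no molecular identifiers, so intervals cover counting error and the spread between libraries but not duplication of molecules.

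Symbols, positions and exon lengths came from GENCODE M21 (GRCm38), which matched 25664 of 25700 identifiers, and promoter windows from RefSeq (GRCm38.p6, with the chromosome coordinates of the same assembly). Low counts were filtered with filterByExpr of edgeR 4.0.16 (R 4.3.3), which kept 18597 genes, libraries were scaled by TMM, and gates were compared by the quasi-likelihood test in a single fit of all 12 libraries, adjusted by Benjamini-Hochberg over all tested genes at a threshold of 0.05. Single values were compared with two-sided exact permutation tests, written for this purpose in Python 3.11.15 with numpy 2.4.6, on log2(CPM + 1) or on ratios of counts. CPM, RPKM, ratios and fold changes were computed here, and the code was tested on simulated data.

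Libraries of different gates share a subject number in the labels, read here as the same mouse. Over 9405 genes with a mean of at least 10 CPM, the correlation of their deviations from the gate means was -0.43 to 0.372 between mSC and nmSC, 0.215 to 0.553 between allSC and mSC, and -0.118 to 0.393 between allSC and nmSC, so not every pair deviated together, and the pairing rests on the labels; the fit with the mouse as a block was run as an alternative. No 2 libraries of a gate were duplicates (chi-square per degree of freedom of 4.03 or more).

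The members and the gene lists were chosen with earlier results of these data known. Named genes are the members, genes that overlap them, Sox10, the 3 E proteins, marker genes (the summed level of the Schwann cell list is not reported here), the 2 nearest profiles of each tested member, and from each related list up to 4 called genes with the largest absolute log2 fold change between mSC and nmSC and a mean of at least 5 CPM. The alternatives were DESeq2 size factors and its Wald test (1.42.0), scaling to total counts, totals without the 50 most counted genes, no filter, a pseudocount of 0.1, only the gates compared, the block, and each library left out. Added after seeing the data were the ratio of Id2 to Sox10, the marker sums and the fit without mSC 4 and nmSC 1.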

Additional observations from a re-analysis of the deposited data

Results flagged for a closer look

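In the log2 ratio of the summed Id genes to the summed E proteins, the mSC library of mouse 4, at 1.39, stood apart from the other 3 mSC libraries, at 0.34 to 0.52, by Dixon's test at the 95% level. Of 51 groups of 4 libraries searched this was the 1 beyond the critical value, and chance alone gives about 1 in 20 groups. The cause was not tested.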

How the results depend on the processing

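Id2 was lower in mSC than in nmSC and passed the threshold in all 16 alternatives to that comparison, at log2 -2.01 to -1.24, and in all 15 against allSC, at -1.20 to -0.69. Sox2 lost its call to nmSC in 1 of 16 alternatives and Pax3 in 10 of 16, by fits without 6 of the 8 libraries, DESeq2 size factors (adjusted p = 0.0548), no filter (0.0598), only the gates compared (0.0715) or without mSC 4 and nmSC 1 (0.292), all by edgeR. The fit with the mouse as a replicate block called 3, 1 and 0 members in the 3 comparisons, as without it, and changed no call of a member.

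Scaling to total counts alone set the median of all genes at -0.73 between mSC and nmSC and called 11864 genes, 1443 higher and 10421 lower in mSC, in place of 7540 (3792 and 3748). It called 6 members there in place of 3, and 2 in mSC against allSC and 2 in nmSC against allSC. Between nmSC and allSC it called 2951 genes and the fit of only these gates 2899, in place of 1928. In that comparison totals without the 50 most counted genes called 1 member and the fit of the 2 gates alone 1. Leaving out 1 library left 1 to 3 members called between mSC and nmSC, the lowest without nmSC 1. The basic helix-loop-helix list had 5 calls in place of 8 with DESeq2 size factors, with no filter and with the 2 gates alone. The median position of allSC moved from 56.1% to 46.9% with total counts. The cause of these shifts was not tested, beyond the scaling itself.

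Some members that were not called in a comparison changed sign there. Values with total counts and with totals without the 50 most counted genes were, for mSC against nmSC, -0.51 and -0.30 for Snai2, -0.33 and -0.13 for Id1, and -0.37 and -0.16 for Id4; for mSC against allSC, -0.17 and -0.066 for Foxd3, -0.25 and -0.15 for Id1, and -0.31 and -0.21 for Id3; and for nmSC against allSC, 0.14 and 0.038 for Snai2, with 0.079 for Id1 by total counts. The mean log2 differences behind the exact tests were -0.27, -0.20 and -0.32 for Snai2, Id1 and Id4 with total counts. With the replicate block, mSC against allSC gave 0.028 for Snai2 and -0.016 for Id3, and only these gates -0.041 for Id3. Without mSC 4 and nmSC 1, Id1 was -0.16 between mSC and nmSC. Leaving out 1 library gave -0.094 to 0.30 for Snai2 between mSC and nmSC. In mSC against allSC it gave -0.32 to 0.35 for Snai2, -0.096 to 0.23 for Id1 and -0.24 to 0.19 for Id3. In nmSC against allSC it gave -0.18 to 0.36 for Pax3, -0.085 to 0.32 for Tfap2b, -0.39 to 0.27 for Snai2 and -0.50 to 0.049 for Id1.

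Among ratios, leaving out 1 library gave differences of -1.14 to -0.62 for Sox2 to Sox10, passing without mSC 1. It gave -1.03 to -0.68 for Id to E proteins, passing without mSC 4. In each case the library left out was the mSC library that overlapped nmSC, which fixed the p at its smallest value. The share of Id1 differed by 1.63 to 2.23 percentage points and that of Id4 by 5.76 to 7.51. Id1 had an exact permutation p of 0.0571 without mSC 1 or mSC 3, and Id4 without nmSC 3. With 4 libraries a gate, the counts of Tfap2a, Tfap2b and Pax3 limit what these data can show. The main edgeR fit and the exact permutation tests did not pair libraries by mouse, so their p-values rest on the spread between libraries, at 1 age. Paired by mouse, mSC against nmSC had an exact sign-flip permutation p of 0.125 for Id2 and 0.25 for Sox2. The exact sign-flip permutation p was 0.125 for the ratio of Id2 to Sox10 and for each Id share. With 4 pairs this exact permutation test cannot fall below p = 0.125, so it cannot pass the threshold.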
